A study of Arabidopsis thaliana with 3 samples.

Results

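The tau-class glutathione transferases, encoded in Arabidopsis thaliana by the GSTU genes, were followed across seedlings with normal, raised and lost WRKY6. Members were selected on their name and on their measured signals: they are the probe sets whose annotation gives a single gene with a symbol of GSTU followed by digits and whose signal reached 174.6, the 50th percentile of all Arabidopsis probe sets pooled over the arrays, on at least 1 of the 3 arrays. Of the 22746 Arabidopsis probe sets, 12505 met the signal rule, and 11 carried a GSTU symbol. The 7 that met both conditions were GSTU16, GSTU18, GSTU20, GSTU22, GSTU25, GSTU26 and GSTU27. The other 4 were GSTU15, GSTU21, GSTU23 and GSTU28. A list of 28 GSTU genes was used for the family, and the other 17 had no probe set under that name in the annotation used and were not analysed here.

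Glutathione transferases join the tripeptide glutathione to reactive or foreign molecules, or bind such molecules without changing them. The tau class is found mainly in plants, where its enzymes are known for conjugating herbicides and products of oxidative damage, and many of its genes respond to stress, oxylipins and hormones. Conjugates are then carried into the vacuole, and glutathione reductases return oxidised glutathione to its reduced form. WRKY6 is a transcription factor that binds W-box sequences and is known from senescence, pathogen defence and the control of phosphate export to the shoot.

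The seedlings were 7 days old and represented 3 genotypes: Columbia wild type, 35S:WRKY6-9, a line in which the broadly active 35S promoter drives WRKY6 and which is called the overexpressor here and 35S:WRKY6 in the plots, and wrky6-1, labelled as a knockout. The labels name an ecotype for the wild type alone, and each altered genotype stands on 1 line. Seeds of all genotypes were kept in the cold for 2 days and then grown on MS agar at 22 °C under constant light, and RNA of whole seedlings was hybridised to 1 Affymetrix array per genotype. No genotype was replicated, so every ratio below compares single arrays, carries no p-value and cannot be set against the spread between seedling samples. As the available measure of precision, 47 genes with several probe sets showed how far probe sets of a gene disagree, with an SD per probe set of 0.25 (log2) for the overexpressor over wild type, 0.23 for wrky6-1 over wild type and 0.27 for the overexpressor over wrky6-1. That SD does not cover variation from plant to plant or from one hybridisation to the next. In RNA from whole seedlings, a change in the share of a tissue and a change in RNA per cell cannot be told apart.

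The WRKY6 signal was 322 (wild type), 9245 (overexpressor) and 12.1 (wrky6-1), in the order that the labels give. The wrky6-1 value lay below 45.5, the 30th percentile, to which lower signals were raised before ratios were taken. Where this probe set lies relative to the wrky6-1 insertion was not checked, which limits what the value says about loss of the transcript. The 2% trimmed mean signal was close to 500 on every array. Hybridisation spike-ins, added in fixed amount, had a median ratio of 1.31 for the overexpressor over wild type (9 probe sets, from 1.17 to 1.39). The median was 1.05 for wrky6-1 over wild type and 1.29 for the overexpressor over wrky6-1. These values bear on every ratio between the arrays, and no ratio below was scaled to the spike-ins. Green-tissue and root transcripts were both abundant, with signals of 19737, 25048 and 25155 for RCA, which encodes Rubisco activase, and of 14213, 17509 and 18203 for PYK10, a root β-glucosidase, in wild type, the overexpressor and wrky6-1.

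GSTU20 and GSTU16 were the members that differed at least 2-fold between arrays, and they did so in different ways. GSTU20 was above wild type in both altered lines, and GSTU16 was low in the overexpressor alone. Each of the remaining 5 varied by less than 2-fold over the 3 arrays. This makes 2 of 7 members with a range of at least 2-fold, against 20.1% of all probe sets that met the signal rule. The median range of log2 signal was 0.80 over the members, from 0.17 for GSTU27 to 1.75 for GSTU16, and 0.55 over all such probe sets. These medians describe the arrays and say nothing particular to the family. All 7 members lay above the signal rule on all 3 arrays, so the rule did not fix the direction of any ratio, and none was raised to the floor.

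**Figure D1:**
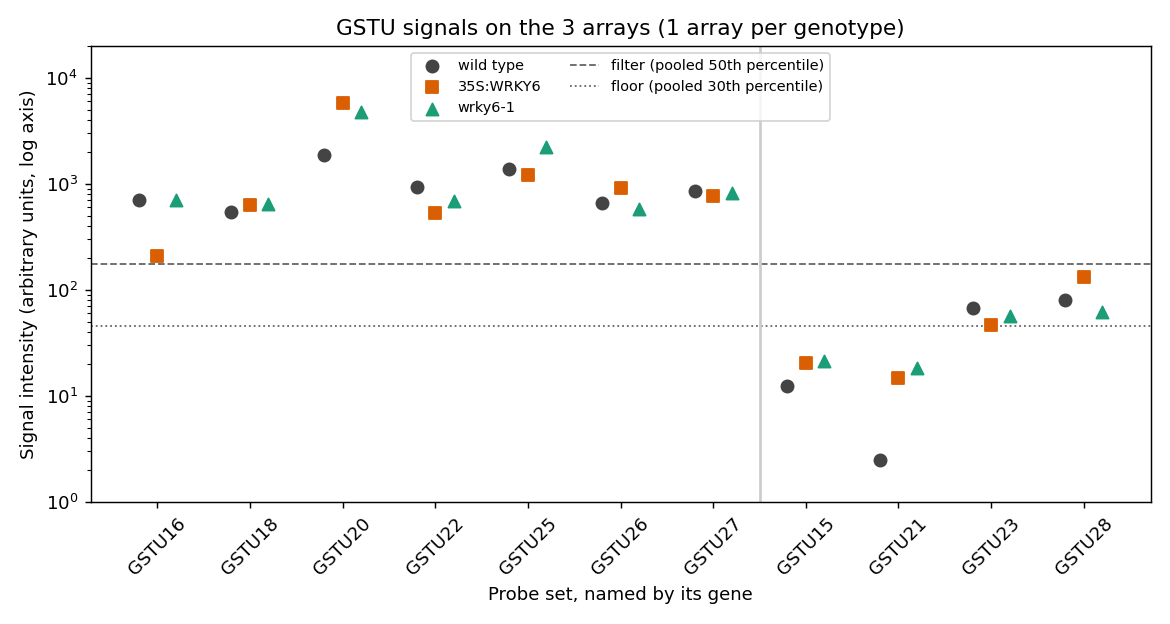
Signal intensity (arbitrary units, log axis) of the 11 GSTU probe sets on the wild-type (circles), 35S:WRKY6 (squares) and wrky6-1 (triangles) arrays, 1 array each. The 7 members, left of the grey line, lie above the filter of 174.6 on every array, and GSTU15 and GSTU21 lie below the floor of 45.5 on every array.

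GSTU20 (AT1G78370, chromosome 1) encodes an enzyme also known as FIP1, which interacts with the jasmonate-conjugating enzyme FIN219/JAR1. Its signal was 1872 (wild type), 5830 (overexpressor) and 4753 (wrky6-1). The wild-type array was the lowest, and both altered lines lay well above it. GSTU20 was 3.11-fold higher in the overexpressor than in wild type (log2 ratio 1.64) and 2.54-fold higher in wrky6-1 (1.34). A ratio this high or higher was seen for 156 of the 12505 probe sets (1.25%) in the overexpressor and for 328 (2.62%) in wrky6-1. Both ratios use the same wild-type array, so its deviation, if any, enters both, and these shares are not independent. Between the altered lines GSTU20 differed 1.23-fold (log2 ratio 0.29), which is close to the SD of a single probe set. GSTU20 thus exceeded its wild-type signal both with WRKY6 raised and with WRKY6 lost.

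GSTU16 (AT1G59700, chromosome 1) had a signal of 705 (wild type), 211 (overexpressor) and 710 (wrky6-1). The wild-type and wrky6-1 arrays were nearly equal, and the overexpressor array stood apart. GSTU16 was 3.34-fold lower in the overexpressor than in wild type (log2 ratio -1.74) and 3.37-fold lower than in wrky6-1 (-1.75). A ratio as low or lower was seen for 158 probe sets (1.26%) against wild type and for 142 (1.14%) against wrky6-1. Its log2 ratio in wrky6-1 over wild type was 0.01. Both low ratios use the single overexpressor array, so its deviation, if any, enters both.

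GSTU22 (AT1G78340, chromosome 1) had a signal of 927 (wild type), 533 (overexpressor) and 692 (wrky6-1). It was below wild type in both lines without reaching 2-fold, with log2 ratios of -0.80 and -0.42. A ratio as low or lower was found for 8.69% of probe sets in the overexpressor and for 24.4% in wrky6-1, so the wrky6-1 value was a common one.

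GSTU25 (AT1G17180, chromosome 1), whose enzyme can conjugate the explosive trinitrotoluene, had a signal of 1390 (wild type), 1205 (overexpressor) and 2212 (wrky6-1). The wrky6-1 array was the highest, 1.59-fold above wild type (log2 ratio 0.67), while the overexpressor was near wild type at -0.21. Between the altered lines GSTU25 was 1.84-fold lower in the overexpressor (log2 ratio -0.88), and 6.09% of probe sets were as low or lower there.

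GSTU26 (AT1G17190, chromosome 1) showed the opposite order, with a signal of 666 (wild type), 906 (overexpressor) and 586 (wrky6-1). Its log2 ratio was 0.44 in the overexpressor, -0.19 in wrky6-1 and 0.63 between the overexpressor and wrky6-1. Both GSTU25 and GSTU26 had wild type between the altered lines, and neither reached 2-fold in any comparison. That place of wild type rests on small ratios. GSTU25 in the overexpressor (-0.21) and GSTU26 in wrky6-1 (-0.19) each lay within 1 SD of a single probe set. The ratio of GSTU26 in the overexpressor was about as large as the log2 value of 0.39 of the spike-ins on the same array. That value bears on the other overexpressor ratios too, among them those of GSTU22 and GSTU25 that stayed under 2-fold. The part of the spike-in difference in any of these ratios was not tested.

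GSTU18 (AT1G10360, chromosome 1) had a signal of 544 (wild type), 635 (overexpressor) and 647 (wrky6-1). GSTU27 (AT3G43800, chromosome 3) had 864, 768 and 826 on the same arrays. These were the steadiest members, with log2 ratios of 0.22 and 0.25 for GSTU18 and of -0.17 and -0.07 for GSTU27 in the overexpressor and wrky6-1. All but the wrky6-1 ratio of GSTU18 lay within 1 SD of a single probe set, and that one exceeded it by little. A range over the arrays as wide as that of GSTU27 or wider was found for 92.4% of probe sets. The GSTU27 ratio in wrky6-1 turned to 0.01 when arrays were scaled to a common median, so no direction is given for it.

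**Figure D2:**
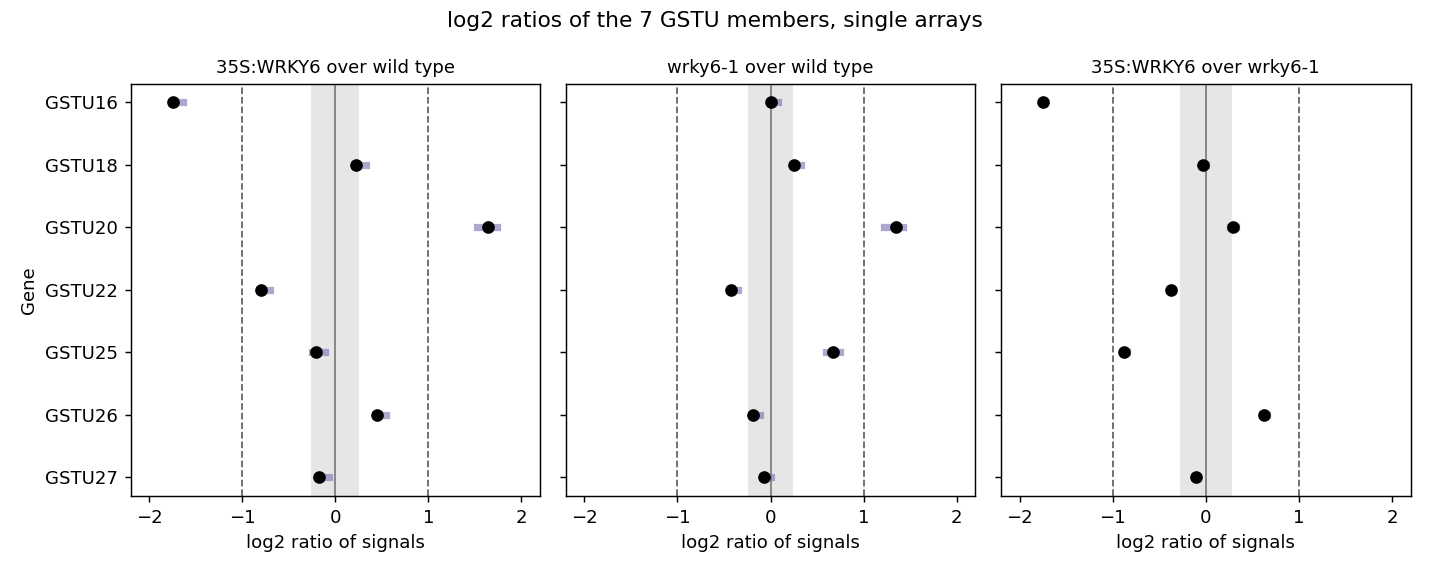
The log2 ratio of signals of the 7 members (points) in the 3 comparisons of single arrays, with purple bars from the lowest to the highest value over the other processing settings. The grey band is 1 SD of the disagreement between probe sets of a gene and the dashed lines mark 2-fold; GSTU20 lies beyond 2-fold against wild type in both lines and GSTU16 in 35S:WRKY6 against each other array.

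In the overexpressor over wild type, 1 of 7 members was at least 2-fold higher, where the share among all probe sets was 3.79%, and 1 of 7 was at least 2-fold lower, where the share was 5.53%. In wrky6-1 over wild type, 1 of 7 was at least 2-fold higher (5.17% of all probe sets) and 0 of 7 lower (7.66%). In the overexpressor over wrky6-1, 0 of 7 were at least 2-fold higher (4.52%) and 1 of 7 lower (4.55%). Each nonzero count rests on GSTU20 or GSTU16 alone, so these counts do not describe a movement of the family. By sign, 3 members were above wild type and 4 below it in the overexpressor, 4 were above and 3 below in wrky6-1, and 2 were above and 5 below in the overexpressor over wrky6-1. With arrays scaled to a common median, the last 2 splits became 5 and 2, through GSTU27, and 3 and 4, through GSTU18, whose ratios lie near 0.

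The median log2 ratio of the members was -0.17 in the overexpressor, 0.01 in wrky6-1 and -0.11 between the altered lines. Over all 12505 probe sets it was -0.02, -0.01 and -0.01. The members spread more widely in the overexpressor, from -1.74 to 1.64, than in wrky6-1, from -0.42 to 1.34. GSTU20 was the highest in both, and the lowest was GSTU16 in the overexpressor and GSTU22 in wrky6-1. The median size of a member's log2 ratio, whatever its sign, was 0.44 in the overexpressor and 0.25 in wrky6-1, where all probe sets had 0.32 and 0.38.

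**Figure D3:**
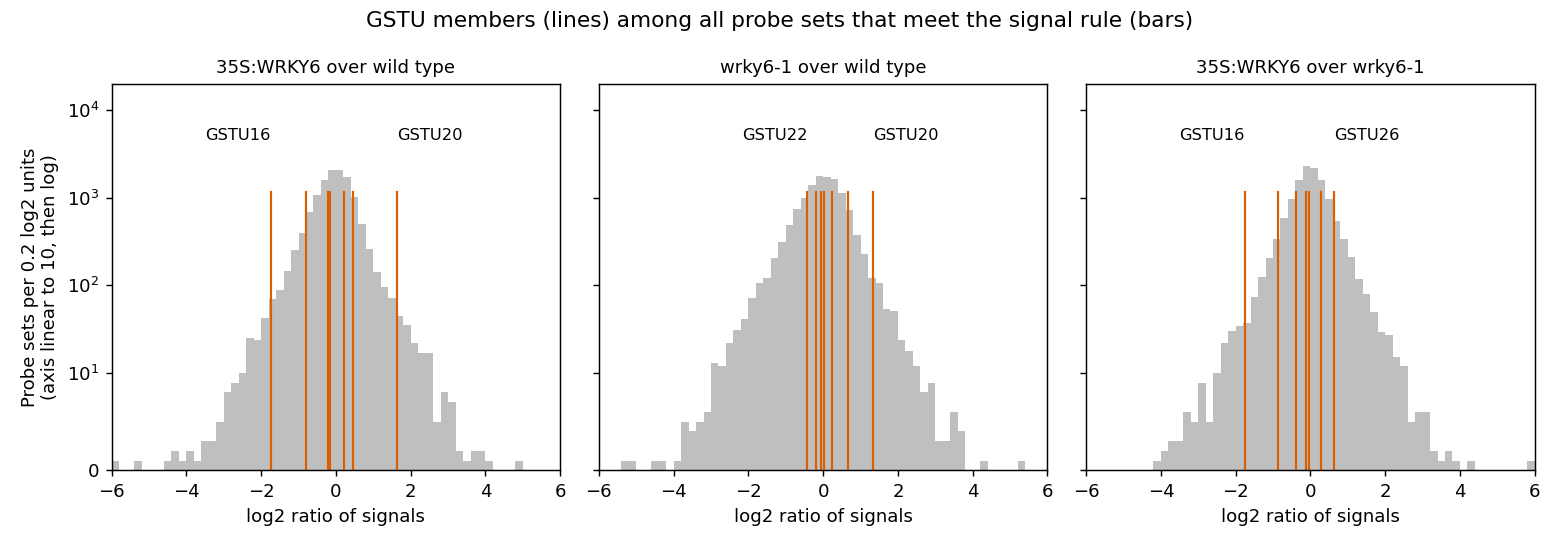
Number of probe sets that met the signal rule per interval of log2 ratio (grey bars; vertical axis linear to 10 and logarithmic above; values beyond 6 in size are in the outermost bars), with the 7 members as vertical lines and the lowest and highest of them named. Most members lie in the dense centre, GSTU20 lies on the right flank against wild type, and GSTU16 lies on the left flank wherever 35S:WRKY6 is the numerator.

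Members that lie close together in the genome differed in their pattern. By the TAIR10.1 gene table, used here only for names and gene order, 18 of the 28 GSTU genes are on chromosome 1, 7 on chromosome 2, 2 on chromosome 3 and 1 on chromosome 5. GSTU19 to GSTU23 follow each other on chromosome 1 with 0 protein-coding genes between them. In that run, with GSTU21 between them, GSTU20 was above wild type in both lines and GSTU22 below it in both. The gap between their log2 ratios, GSTU20 minus GSTU22, was 2.44 in the overexpressor and 1.76 in wrky6-1, and a common scaling factor of an array cannot change it. From the disagreement between probe sets, such a gap has an SD of 0.35 and 0.32. That SD does not cover variation between seedling samples or hybridisations. GSTU21 and GSTU23, the other genes of the run with a probe set, were too dim to be members.

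GSTU24, GSTU25 and GSTU26 also stand side by side on chromosome 1. The log2 ratio of GSTU25 minus that of GSTU26 was -0.65 in the overexpressor, 0.86 in wrky6-1 and -1.51 between the altered lines. The SD of such a gap, from probe sets alone, was 0.35, 0.32 and 0.38 in the same order. The difference between their log2 ratios to wild type thus had opposite signs in the altered lines, each on a single array. GSTU15 and GSTU16 have 3 protein-coding genes between them, and GSTU18 is next to GSTU17. All 11 probe sets have the plain "_at" suffix, which Affymetrix gives to probe sets designed for a single transcript. How far their probes match close copies was not analysed here, so the signals of neighbouring copies may not be fully separate.

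The 4 dimmer probe sets lay clear of the signal rule. The brightest value among them was 133, for GSTU28 in the overexpressor, while the member with the lowest maximum was GSTU18, at 647. GSTU28 (AT1G53680) had a signal of 81.2 (wild type), 133 (overexpressor) and 62.3 (wrky6-1), and so followed the order of GSTU26. GSTU23 (AT1G78320) had 68.1, 46.4 and 56.7, the order seen for its neighbour GSTU22. GSTU15 (AT1G59670) was between 12.5 and 21.3, and GSTU21 (AT1G78360) between 2.47 and 18.2, below the floor on every array, so no ratio is given for them. At such signals background subtraction makes ratios imprecise, and the 4 were not counted.

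Few other genes of the glutathione system had a named probe set. Of 25 genes in the phi, theta, zeta, lambda, dehydroascorbate reductase and TCHQD classes 3 had a named probe set, and GSTL3 alone met the signal rule. GSTL3, a lambda-class enzyme that acts as a thiol transferase, had a signal of 2134 (wild type), 3454 (overexpressor) and 2098 (wrky6-1). It was 1.62-fold higher in the overexpressor (log2 ratio 0.69) and at -0.02 in wrky6-1, a value that took either sign over the scalings. GSTF4 and GSTF13 stayed under the signal rule, from 107 to 115 and from 19.2 to 49.8.

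Of 11 genes for glutathione synthesis, reduction and breakdown the reductases GR1 and GR2 were measured. GR1, the cytosolic and peroxisomal glutathione reductase, had a signal of 1723 (wild type), 3468 (overexpressor) and 3673 (wrky6-1). Like GSTU20, it was lowest in wild type, 2.01-fold below the overexpressor (log2 ratio 1.01) and 2.13-fold below wrky6-1 (1.09). GR1 passed 2-fold narrowly and dropped under it with lowess scaling, at 0.91 and 0.98, and in the overexpressor with quantile scaling, at 0.99. GR2, the plastid and mitochondrial form, stood at log2 ratios of 0.24 and 0.50. The lists of 8 glutathione peroxidase-like genes and 8 ABCC transporters, which move conjugates into the vacuole, had 0 genes with a named probe set.

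Of 16 detoxification genes 3 were measured. UGT73B5, a glycosyltransferase gene that responds to stress, had a signal of 194 (wild type), 62.4 (overexpressor) and 190 (wrky6-1). It was low in the overexpressor alone, as GSTU16 was, by 3.11-fold against wild type (log2 ratio -1.64), and the log2 ratio was -1.01 with the higher floor. Unlike GSTU16, UGT73B5 met the signal rule only on the wild-type and wrky6-1 arrays. Its low place in the overexpressor is therefore not independent of the rule. UGT73B4 had log2 ratios of -0.53 and 0.32 in the overexpressor and wrky6-1. It too fell under the signal rule on the overexpressor array alone, with a signal of 129. AER, an alkenal reductase, had -0.19 and 0.11. Of 10 genes for scavenging of hydrogen peroxide and superoxide, the chloroplast ascorbate peroxidases SAPX (0.32 and 0.50) and TAPX (-0.14 and 0.26) were measured, and neither reached 2-fold.

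**Figure D4:**
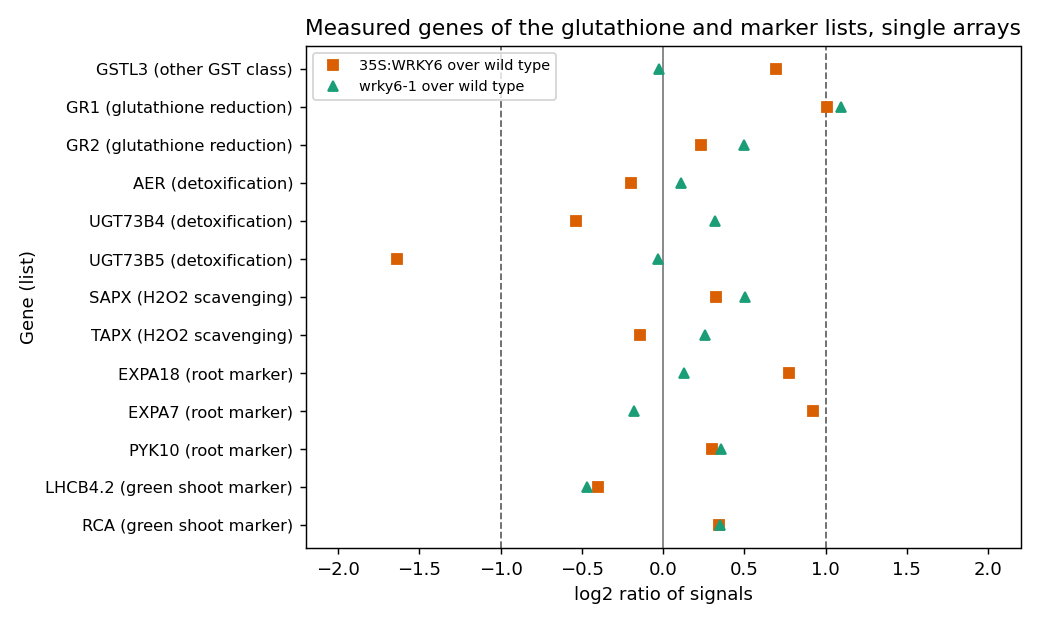
The log2 ratio of signals over wild type in 35S:WRKY6 (squares) and wrky6-1 (triangles), 1 array each, for the measured genes of the lists on the glutathione system, detoxification and tissue markers. Dashed lines mark 2-fold; GR1 lies at or just beyond it in both lines and UGT73B5 beyond it in 35S:WRKY6.

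The UGT glycosyltransferases, another large family that conjugates foreign and stress-derived molecules, had 26 measured probe sets of 47. At the 2-fold threshold, 0 were higher and 3 lower in the overexpressor than in wild type, and 4 were higher and 2 lower in wrky6-1. Between the altered lines 2 were higher and 6 lower in the overexpressor. Among all probe sets the shares higher and lower were 3.79% and 5.53%, 5.17% and 7.66%, and 4.52% and 4.55% in the same order of comparisons. The median log2 ratios of the UGT probe sets were -0.02, 0.11 and -0.42. With 1 array per genotype, no difference between this family and the GSTU members could be tested.

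Markers of tissue were set beside the members. Of 12 root markers 3 had a probe set. The root hair expansins EXPA7 and EXPA18 had log2 ratios of 0.92 and 0.77 in the overexpressor and of -0.18 and 0.13 in wrky6-1, and PYK10 had 0.30 and 0.36. EXPA7 was at 1.02 in the overexpressor under each other scaling, past 2-fold. Of 12 green-tissue markers 2 had a probe set, with log2 ratios of 0.34 and 0.35 for RCA and of -0.40 and -0.47 for the light-harvesting gene LHCB4.2. The values of these bright genes depended on the scaling. With lowess scaling they were 0.09 and 0.10 for PYK10, 0.12 and 0.07 for RCA, and -0.62 and -0.73 for LHCB4.2. EXPA7 had a signal of 128 (wild type), 243 (overexpressor) and 113 (wrky6-1). It met the signal rule on the overexpressor array alone, so its higher value there is not independent of the rule. EXPA18, at 179, 305 and 195, met the rule on all 3 arrays. Both root hair genes had their highest signal on the overexpressor array. Among the members and the measured genes of the glutathione and detoxification lists, ratios to wild type there went both ways. They were above 0 for GSTU18, GSTU20, GSTU26, GSTL3, GR1, GR2 and SAPX. They were below 0 for GSTU16, GSTU22, GSTU25, GSTU27, UGT73B4, UGT73B5, AER and TAPX. Those of GSTU18, GSTU25, GSTU27, GR2, AER and TAPX lay within 0.25, the SD of a single probe set. GSTU20 and GR1 were higher in wrky6-1 too, at 1.34 and 1.09, where EXPA7 and EXPA18 were at -0.18 and 0.13. The part of root hairs in these values was not tested.

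The genes most like GSTU16, the member with the widest range, were sought among 1005 probe sets with a gene symbol by the distance between their pairs of log2 ratios to wild type, over 3 arrays. The 5 nearest were RD2, a desiccation-responsive gene, UGT73B5, the calmodulin-binding protein gene IQD22, the ubiquitin ligase gene PUB25 and the cold-regulated gene COR15B. RD2 had a signal of 3616 (wild type), 1098 (overexpressor) and 3591 (wrky6-1), with log2 ratios of -1.72 and -0.01 at a distance of 0.03. UGT73B5 followed at 0.11 and COR15B, the last, at 0.51. On the overexpressor array UGT73B5, IQD22 and PUB25 fell under the signal rule, at 62.4, 146 and 82.3. These genes met the rule only on the other arrays, so their low place there is not independent of it. For GSTU20, which was added to this search after its values were seen, the nearest were the plastid genes atpH, with log2 ratios of 1.28 and 1.38 at a distance of 0.36, and atpI, at 0.45, followed by the nuclear genes ATLP-1 at 0.48, EXPB3 at 0.60 and scpl46 at 0.62. Of the genes nearest to GSTU20, scpl46 met the signal rule in the altered lines alone, with a signal of 131 in wild type. Closeness over 3 arrays is a description of these arrays.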

How the data were processed

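Total RNA of whole seedlings was labelled with biotin and hybridised to Affymetrix arrays, 1 for each of 3 genotypes, per the labels' protocols. The deposited values were linear signal intensities, 1 per probe set and array. GCOS 1.0 and MAS5 are listed, with no role, in the submitters' processing notes, and the genome build is not given in the sources used here. Trimmed means near 500 show that the arrays had been scaled, and the intensity values were used as deposited. The 64 control probe sets were left out of gene comparisons. Signals below the pooled 30th percentile were raised to it before log2 ratios were taken, and ratios of at least 1 in size on the log2 scale were counted. Groups came from the genotype labels. No test was possible with 1 array per genotype, and the number of arrays limits the precision.

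Gene names came from the platform annotation, where 13513 probe sets named 1 gene, 503 several and 8730 were not listed, and 13436 were matched to TAIR10.1. Members and gene lists were chosen with earlier results of these data known. The naming rule took every GSTU probe set, WRKY6, the 2 measured genes of each list with the largest ratio in size, and the 5 genes nearest to the member of widest range. Other measured list genes, at most 1 or 2 a list, were named to complete the lists, after their values were seen. Promoter and protein sequences were not analysed here. Alternatives changed the floor, the filter, the scaling (quantile, median, lowess) and the choice of probe set. The ratio calculation was tested on simulated data. Python 3.11.15, pandas 2.3.3, numpy 2.4.6, statsmodels 0.14.6 and matplotlib 3.10.9 were used.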

Additional observations from a re-analysis of the deposited data

How the results depend on the processing

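The 7 members and their 3 comparisons gave 21 log2 ratios, which were recomputed under 9 other settings of floor, filter, scaling and probe set choice. The 6 settings of floor, filter and probe set choice left every member's ratio as it was, since the members lie above each floor and filter and have 1 probe set each, so they say nothing about stability. Under the 3 scalings 19 of the 21 kept their sign. With arrays scaled to a common median, GSTU27 turned to 0.01 in wrky6-1 over wild type and GSTU18 to 0.0012 between the altered lines. GSTU20 stayed beyond 2-fold under the 3 scalings, from 1.52 to 1.74 in the overexpressor and from 1.22 to 1.42 in wrky6-1. GSTU16 also did so in the overexpressor, from -1.69 to -1.64 against wild type, where the value without further scaling was -1.74. Without the filter, 1 GSTU gene, GSTU28, was at least 2-fold higher in the overexpressor than in wrky6-1, in place of 0, because that setting admits the 4 dim probe sets. The median over the 7 members ran from -0.17 to -0.07 in the overexpressor and from 0.01 to 0.08 in wrky6-1. Between the altered lines it ran from -0.12 to -0.08. With the 4 dim probe sets admitted, the median was 0, 0 and -0.03 in the same order. Median scaling moved the median of all probe sets in the overexpressor over wild type from -0.02 to 0.08. No paired analysis was possible because each genotype had 1 array, and no replicate could be left out.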
